A study of Mus musculus with 50 samples.

Results

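The cytosolic ribosomal protein genes were taken as all genes of the count tables named Rps or Rpl followed by a number (with an optional a, l or x), together with Rpsa, Rplp0, Rplp1 and Rplp2. They numbered 82 of 24984 genes, 32 named for the small (40S) subunit and 50 for the large (60S) subunit or its stalk. RNA-seq counts of mouse kidney, liver and skin fibroblasts (38 libraries in 10 groups) and ATAC-seq peaks of kidney and liver (12 libraries in 4 groups) were examined. The untreated C57BL/6 animals, which the methods describe as female, were young (2.5 months) or old (23 to 25 months), with 4 RNA-seq and 3 ATAC-seq libraries for each tissue and age. The other RNA-seq libraries came from kidney and liver of C57BL/6 mice aged 20 to 21 months that were given DMSO, a solvent, or a treatment labelled 3C (4 libraries a group), and from skin fibroblasts of the same strain labelled P9 that were given DMSO or 3C (3 libraries a group). The sources used here do not say what 3C or P9 stands for. They also do not say that replicates came from separate animals or cultures, so p-values measure only the spread between these samples, which may be technical.

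Each cytosolic ribosome holds one copy of nearly every ribosomal protein, bound to ribosomal RNA, and a shared supply of these proteins is therefore needed for both subunits. Their mRNAs are short and abundant, and most begin with a 5′ terminal oligopyrimidine (TOP) tract, a run of C and T at the transcription start through which mTOR signalling controls translation. A few members have paralogs with a narrower expression, such as Rpl3l in heart and skeletal muscle and Rpl10l and Rpl39l in male germ cells. Mammalian genomes also carry many processed pseudogenes of these genes, which are copies of the spliced mRNA.

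Start windows of 30 bases are given for 7 members on which the tests below turned, so that the C and T run at a typical member can be set beside those of 2 narrowly expressed paralogs. They were read from RefSeq promoters of GRCm38.p6, 5′ to 3′ on the strand of the gene, and the capitals mark the longest C and T run near the annotated start. Rpl12 lies at chr2:32961701-32961730 (plus strand), Rps18 at chr17:33955648-33955677 (minus), Rps26 at chr10:128626485-128626514 (minus), Rpl13a at chr7:45128722-45128751 (minus), Rps27l at chr9:66946066-66946095 (plus), Rpl39l at chr16:10170209-10170238 (plus) and Rpl3l at chr17:24727822-24727851 (plus). Each window spans the upstream flank and the first bases of exon 1, that is, of the 5′ UTR.
Rpl12: gagcaggatccgTCTTTTCggctttcggct
Rps18: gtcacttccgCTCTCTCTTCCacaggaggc
Rps26: aagccgccggaTCCTCTTTCgagtcttggc
Rpl13a: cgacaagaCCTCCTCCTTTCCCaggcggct
Rps27l: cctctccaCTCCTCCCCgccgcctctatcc
Rpl39l: ctagctcccaggCCTTTCCggatttccggt
Rpl3l: ctctgtcatttgaCCTCTggtgcctggtgg

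The run was 14 bases long in Rpl13a, 11 in Rps18, 9 in Rps26 and Rps27l, 7 in Rpl12 and Rpl39l, and 5 in Rpl3l. Relative to the annotated start, its first base lay at -2 in Rps18, 2 in Rpl12, 3 in Rpl13a, 4 in Rps26 and 10 in Rpl3l. In Rps27l and Rpl39l it began at -12 and -7 and ended upstream of the start. By this annotation the runs of Rps27l and Rpl39l are therefore not part of the mRNA, and their lengths are not those of a TOP tract. A RefSeq promoter was found for 61 of the 82 members. A run of at least 8 C or T between 20 bases before and 30 after the start was present in 55.7% of these 61 members. It was present in 21.4% of the 26964 other genes of the table. A gene with several promoters was scored by the longest run in any of them. On the opposite strand such a run was present in 9.84% and 24.7%. The letters CCGGAAG, the core bound by ETS factors, occurred on either strand in a promoter of 41.0% of these members and 9.86% of the other genes. GGGCGG (bound by Sp1) occurred in 59.0% and 38.2%, and TATAAA in 11.5% and 15.7%. Each was sought in the 250 bases before to 50 after the start. These are matches of letters, and no binding was measured.

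Ribosomal protein transcripts were short. The summed exon length had a median of 740 bp (390 to 5136 bp) in the members and 2267 bp in 24347 other annotated genes, and 70.7% of the members but 21.4% of the others were no longer than 1 kb. The median GC content was 51.2% in the members and 49.2% in the others. The members were spread over the genome, with 14 of the 82 on chromosome 7. A match of each transcript to the GRCm38 genome found at least one further copy of at least 95% identity over at least 50% of its length for 63 members, with a median of 4 copies and a highest number of 37, for Rpl7a. Reads that fit such a copy equally well cannot be assigned to the gene, so these counts may be uncertain in level. A copied stretch of 100% identity was found for 16 members, 15 of which still stood at 100 CPM or more per kb of exon, and Rpl7a averaged 446 CPM per kb.

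Some members had almost no counts in any library. Rpl26 was listed at 0 in 38 of 38 libraries. Rpl30 had 0 to 41 counts, Rpl34 6 to 53, Rps27 0 to 35 and Rpl32l 0 to 24. All but Rpl32l are core ribosomal proteins, and open chromatin was called at the start of Rpl26, Rpl30, Rpl34 and Rps27 in 12 of 12 ATAC-seq libraries. The fold enrichment of these peaks over local background was 3.08 to 5.06 at Rpl26 and 7.07 to 15.2 at Rpl30. The counts of these 4 core members therefore do not give their levels, and the cause was not tested. Rpl32l had a peak in 6 of 6 kidney and 1 of 6 liver libraries, and whether its counts give its level is not known. The haemoglobin genes Hba-a1, Hba-a2, Hbb-bs and Hbb-bt were likewise listed at 0 in every library. Genes annotated as pseudogenes of the family took 1.70 to 3.18 counts for every 1000 counts of the members, most of them from Rpl14-ps1 (65697 counts over all libraries).

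The members together took the smallest share of counts in liver and the highest in fibroblasts. Their share was 2.53% ± 0.388 (SD, n = 4) in young kidney, 3.60% ± 0.713 in old kidney, 1.76% ± 0.270 in young liver and 1.84% ± 0.470 in old liver. In the DMSO and 3C series it was 2.74% ± 0.131 and 2.73% ± 0.193 in kidney, 1.81% ± 0.119 and 1.86% ± 0.263 in liver (n = 4 each), and 7.74% ± 0.965 and 7.15% ± 1.36 in fibroblasts (n = 3 each). The 10 most abundant genes took 16.1 to 25.3% of the counts in liver and 5.78 to 10.7% elsewhere, so a share of liver counts is a share beside more abundant transcripts. Small subunit genes held 38.7 to 41.2% of member counts in every group. The libraries held 14.2 to 43.7 M (mega) gene counts. In bulk tissue, fewer cells of a type and less RNA per cell cannot be told apart.

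**Figure D1:**
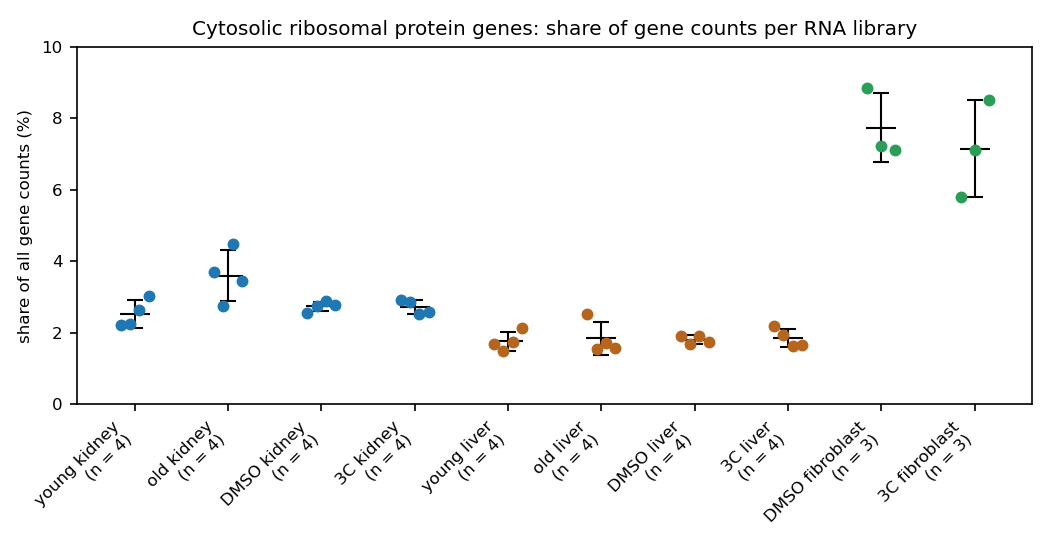
Share of all gene counts (%, y axis) taken by the 82 ribosomal protein genes in each of the 38 RNA-seq libraries, by group (x axis). Points are libraries and bars give the mean and SD. Fibroblasts lie between 5.80% and 8.85%, above every kidney and liver library, and the 4 old kidney libraries spread from 2.76% to 4.49%.

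Levels were compared between members as CPM (counts per M gene counts, scaled by TMM factors) per kb of exon. The median member stood at 248 CPM per kb in young kidney, 344 in old kidney, 380 in young liver, 379 in old liver, 281 in DMSO kidney, 383 in DMSO liver and 973 in DMSO fibroblasts. Rplp1, an acidic protein of the stalk that recruits translation factors, was the highest member in 9 of the 10 groups, with 6246 CPM per kb in DMSO fibroblasts, 1715 in DMSO liver and 1223 in DMSO kidney. In young kidney Rpl41 (932 ± 196, SD, n = 4) and Rplp1 (914 ± 188) did not differ beyond their spread. Its partners Rplp0 and Rplp2 stood at 493 and 315 CPM per kb in young kidney, and Rps6, the substrate of S6 kinase, at 236. In each group 7 or 8 members stood below 10 CPM per kb. Among the 74 members above that level in all groups, the highest exceeded the lowest (Rps4l) by 56.4 to 105 times. How far reads lost to genomic copies enter this range was not tested.

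Old against young kidney asked whether ribosomal protein transcripts move with age. All 78 members that passed the filter on low counts had a log2 fold change above 0, against 52.2% of all 14495 genes tested, and their median was 0.48 against 0.02. The values ran from 0.14 (Rps2) to 0.85 (Rps27a). Only 1 member passed the edgeR test at an adjusted p under 0.05, Rpl12, a protein at the base of the stalk, and none was lower. Of all genes, 8.15% were called higher and 3.36% lower. At an unadjusted p under 0.05, 46 members were higher (16.4% of all genes), and DESeq2 called 10 members higher (11.1%). In 0 members did the old libraries lie fully above the young ones (10.9% of all genes).

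In single libraries the ages overlapped. Rplp0 stood at 761, 845, 996 and 1241 CPM in the young libraries and at 1476, 976, 1854 and 1269 CPM in the old (TMM factors of this comparison; log2 fold change 0.54 ± 0.21, SE, adjusted p = 0.129). Rpsa, the 40S protein also known as the laminin receptor, stood at 484, 534, 651 and 800 CPM in young and 989, 653, 1360 and 848 CPM in old kidney (0.64, adjusted p = 0.102). In both, old library 2 lay among the young values and young library 4 was the highest of its group. Rplp1 of the stalk showed the same order, with 513, 513, 625 and 799 CPM in young and 965, 603, 1182 and 730 CPM in old kidney (0.51, adjusted p = 0.161).

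Rpl12, which is named here after its values were seen, stood at 184, 182, 226 and 256 CPM in young and 345, 245, 421 and 321 CPM in old kidney (0.65, edgeR adjusted p = 0.0429), and the groups overlapped. Rps27a, which encodes a 40S protein fused to ubiquitin, stood at 88.7, 78.1, 157 and 148 CPM in young and 342, 109, 239 and 161 CPM in old kidney (0.85, adjusted p = 0.138). It varied more than the family: old library 1 held 89.7 Rps27a counts for every 10000 member counts, and the 3 other old libraries 42.5 to 50.2. Rpl5 and Rpl11, which form a particle with 5S rRNA that can bind Mdm2, had log2 fold changes of 0.31 (adjusted p = 0.215) and 0.46 (0.195). Rps6 (0.41, adjusted p = 0.124) and the paralogs Rps4l (0.50, 0.167), Rps27l (0.37, 0.253) and Rpl3l (0.33, 0.606) did not pass the test either.

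The count of members called in old kidney rested on single libraries. Without old library 2 it was 52, without young library 4 it was 5, and it was 0 without young library 1, 2 or 3 or without old library 1, 3 or 4. Calls over all genes moved as well, with 1670 higher and 1770 lower of 14519 genes without old library 2, 1291 and 822 of 14748 without young library 4, and 695 to 1113 higher and 138 to 314 lower in the other fits. Among those that passed without old library 2 were Rplp0 (0.67, edgeR adjusted p = 0.0329), Rpsa (0.79, 0.0252), Rps27a (1.06, 0.0294), Rplp1, Rplp2, Rps6, Rpl10, Rps4x and Rps4l. The median log2 fold change stayed between 0.31 (without old library 3) and 0.63 (without old library 2). Old library 2 stood apart in hepatocyte markers, whose summed level was 3561 CPM there, 170 to 278 CPM in the 3 other old libraries and 184 to 259 CPM in the young ones. Old libraries 2 and 4, those with the lowest member share, also held more fibroblast markers (646 and 767 CPM, against 305 and 371 CPM in old libraries 1 and 3), podocyte markers (645 and 557, against 363 and 323) and dividing cell markers (41.6 and 36.1, against 14.7 and 14.6). In young libraries 1 to 4 podocyte markers summed to 597, 536, 445 and 375 CPM, in the reverse order of the member share. Immune markers moved with age: B and plasma cell markers summed to 5.62 to 11.015 CPM in young and 375 to 559 CPM in old kidney (6 of 6 called higher), T cell markers to 4.30 to 5.30 and 15.8 to 28.8 CPM (4 of 5), and macrophage markers to 132 to 154 and 620 to 1425 CPM (6 of 6). Of 6 tubule markers, 1 was called lower (Slc34a1, log2 fold change -0.61). Their part in the member values was not tested.

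Other short transcripts also lay higher in old kidney. Among genes that are no members, the median log2 fold change was highest in genes of 500 to 1000 bp and fell with exon length beyond that. It was 0.18 up to 500 bp (92 genes), 0.25 from there to 1000 bp (755 genes), 0.23 to 1500 bp, 0.14 to 2500 bp, 0.00 to 4000 bp and -0.21 above (4772 genes). Across these 14226 genes Spearman's rho between length and log2 fold change was -0.41, and with GC content 0.33, given as descriptions since genes share the same libraries. Within the members rho was -0.05 with length and 0.07 with GC content. When a smooth trend over length and GC, fitted in each library on genes that are no members, was removed, the member median was 0.17 in place of 0.48, 73 of 78 members lay above 0 and 6 were called higher (10.5% of all genes). These 6 were Rpl12 (0.31), Rpl10 (0.30), Rpl17 (0.30), Rpl36a (0.44), Rps4x (0.34) and Rps24 (0.53), and Rps2 was at -0.23 (not called).

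The same trend differed between libraries of one age. At the length and GC content of the members it stood at -0.31, -0.32, -0.24 and -0.05 (log2, relative to the mean over libraries) in young kidney and at 0.30, -0.01, 0.44 and 0.20 in old kidney. In old kidney its order was that of the member share, with library 3 highest and library 2 lowest. In young kidney library 4 was highest and library 3 next in both, and libraries 1 and 2 nearly tied in both. For the summed member CPM, the trend and the TMM factors were fitted over all untreated kidney and liver libraries together. Removal of that trend brought the coefficient of variation of the sum from 18.4% to 7.24% in young and from 29.1% to 9.47% in old kidney. It brought the mean of that sum from 17999 to 20846 CPM in young and from 24355 to 23588 CPM in old kidney. What sets the trend in a library was not tested.

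**Figure D2:**
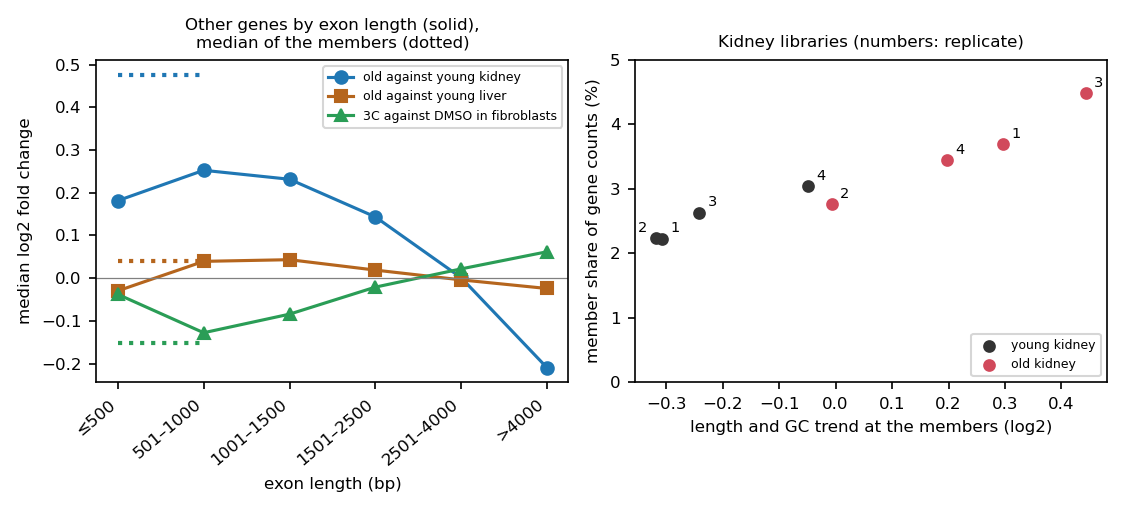
Left, median log2 fold change (y axis) of genes that are no members by exon length (x axis, bp) in old against young kidney, old against young liver and 3C against DMSO fibroblasts, with dotted lines at the member medians. Right, the length and GC trend at the members (x axis, log2) against the member share of counts (y axis, %) in the 8 untreated kidney libraries. The kidney line runs from 0.18 in the shortest to -0.21 in the longest genes, and the libraries with the highest trend had the highest share in both ages.

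Related genes in old kidney were counted on lists, beside which 8.15% of all genes were called higher and 3.36% lower. Of 7 tested cytosolic ribosomal proteins that the naming rule misses, 7 lay above 0 and 0 were called, with a median of 0.44. Of 78 mitochondrial ribosomal protein genes 65 lay above 0 and 0 were called (median 0.14). Among 18 translation factors and other genes with TOP mRNAs 1 was called, Eif4b (lower, -0.45), and among 40 ribosome biogenesis genes 1, Utp20 (lower, -0.76). Among 26 regulators of these mRNAs Larp4, an RNA-binding protein that protects poly(A) tails, was lower (-0.76), and of 14 RNA polymerase I genes 0 were called. Of 16 p53 target genes 6 were higher, among them Cdkn1a, a cell-cycle inhibitor (1.12), and Gdf15, a stress cytokine (1.42).

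In liver no member was called with age. Of 76 members tested, 0 passed the edgeR test in either direction and 0 had an unadjusted p under 0.05 (14.7% of all genes). DESeq2 called 0, with 0 at an unadjusted p under 0.05. Of all genes edgeR called 1.91% higher and 0.558% lower. The median log2 fold change was 0.04 (all genes 0.00), and 56 members lay above 0 (50.4% of all genes). The most distant were Rps4l (-0.57, adjusted p = 0.443) and Rpl14 (0.31). The length and GC trend removed, the median was -0.10 and 19 members lay above 0.

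One old liver library carried the highest values. Rplp1 stood at 458, 403, 521 and 748 CPM in young and at 913, 336, 379 and 330 CPM in old liver, and Rpl11 at 296, 221, 286 and 482 CPM and 596, 243, 253 and 253 CPM. Rpsa stood at 520, 408, 569 and 746 CPM in young and 980, 418, 483 and 426 CPM in old liver. In each of these genes young library 4 and old library 1 were the highest of their groups, and these were also the libraries with the highest length and GC trend at the members (0.15 in young library 4 and 0.52 in old library 1, the others between -0.31 and 0.04). Without old library 1 the median was -0.32, with 1 member above 0, without young library 2 it was -0.08, with 11 above 0, and without young library 4 it was 0.24, with 75 above 0. Of the B and plasma cell markers 4 of 5 were called higher, and of the macrophage markers 2 of 6. Of 5 hepatocyte markers 0 lay above 0 (median -0.51) and 0 were called. Their summed level was 126670 to 164930 CPM in young and 68885 to 110740 CPM in old liver, lowest in old library 3. The part of these markers in the member values was not tested.

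The difference between the age effects of liver and kidney was tested itself. Of 78 members 0 were called by edgeR and 0 by DESeq2, and each had 1 at an unadjusted p under 0.05 (Rps4l in edgeR, -1.04, adjusted p = 0.248). Among all genes 0.871% were called higher, 0.845% were called lower and 14% had an unadjusted p under 0.05. The median difference, liver minus kidney, was -0.41 with 2 members above 0 (53% of all genes). It ran from -0.78 to -0.24 as single libraries were left out. With the length and GC trend removed it was -0.24 with 5 members above 0, and 0 were called. A larger age effect in kidney than in liver was therefore not shown for any member.

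3C against DMSO was compared in both tissues of mice aged 20 to 21 months. In kidney 0 of 76 members were called by edgeR or DESeq2 and 0 had an unadjusted p under 0.05 by either, while of 14974 genes edgeR called 0% and gave 11.9% an unadjusted p under 0.05. DESeq2 called 66 of these genes higher and 148 lower. The median log2 fold change was 0.02, with 49 members above 0 (51.4% of all genes), and the middle 50% of members lay between -0.01 and 0.05. The extremes were Rpl34 (-0.57), one of the members with almost no counts, and Rpl23 (0.11). In liver 0 of 75 members were called by edgeR or DESeq2, with 0 at an unadjusted p under 0.05, and of 13042 genes edgeR called 0% and gave 3.34% an unadjusted p under 0.05, and DESeq2 called 4 higher and 2 lower. The liver median was 0.06 with 58 members above 0 (49.7% of all genes), from -0.11 (Rpl14) to 0.40 (Rps27a, adjusted p = 0.9996). As single libraries were left out the median stayed within -0.03 to 0.06 in kidney and 0.00 to 0.12 in liver, but the number above 0 moved to 20 without 3C kidney 1, 30 without DMSO kidney 1 and 70 without 3C kidney 3, and in liver to 35 without 3C liver 1 and 73 without DMSO liver 3. In both tissues the B and plasma cell, T cell, macrophage and fibroblast markers lay below 0 in every tested gene, none was called, and their part in the member values was not tested. For the difference of the 3C effects between liver and kidney, 0 of 76 members were called by edgeR or DESeq2 (0% of all genes), with 0 at an unadjusted p under 0.05 (3.57%). The median was 0.01, with 42 members above 0 (47.4% of all genes). Without DMSO liver 3 it was 0.11 with 70 members above 0, and without 3C kidney 3 it was -0.03 with 27 above 0.

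In skin fibroblasts the members lay slightly lower with 3C, and none was called. Of 79 members 0 passed the edgeR or the DESeq2 test, and each tool had 1 at an unadjusted p under 0.05, Rpl39l in edgeR. Of all genes 2.43% were called higher, 1.78% were called lower and 20.2% had an unadjusted p under 0.05. The median was -0.15 with 2 members above 0, Rps14 and Rps29 (51.1% of all genes). Rplp0 stood at 3936, 3101 and 3648 CPM with DMSO and at 2430, 2934 and 3780 CPM with 3C, and Rps6 at 1237, 1029 and 1151 CPM and 834, 996 and 1204 CPM. Rplp2 was similar, at 1165, 918 and 1029 CPM with DMSO and 651, 878 and 964 CPM with 3C. The 3C libraries spread widely, with 3C library 1 lowest and the groups overlapping in each of these genes. Without 3C library 1 the median was -0.01 with 38 members above 0, without DMSO library 1 it was -0.04 with 29 above 0, and without 3C library 3 it was -0.31 and 1 of 79 members was called lower, Rpl39l (-0.76, adjusted p = 0.0252), beside 239 of all 13863 genes. With the length and GC trend removed the median was -0.05 with 26 members above 0.

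Some genes that build ribosomes were called lower in the same comparison. Of 40 ribosome biogenesis genes 6 fell (1.78% of all genes), including the rRNA methyltransferase Nop2 (-0.54) and Rrp9 (-0.51), a protein of a nucleolar RNP, with a median of -0.37 and 1 gene above 0, and the other 34 did not pass. Of 14 RNA polymerase I genes 0 were called. Of 26 regulators of ribosomal protein mRNAs 1 was called and 11 lay above 0 (median -0.07). The called gene was Myc, a transcription factor known to drive ribosome biogenesis genes, which fell by 0.83 on the log2 scale (edgeR adjusted p = 0.0119). Of 78 mitochondrial ribosomal protein genes 5 lay above 0 (median -0.20). Of 5 markers of dividing cells 3 fell, among them Top2a (-0.64) and Birc5 (-0.73), and 2 of 6 macrophage markers did, among them Lyz2 (-1.35). Their part in the member values was not tested.

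Liver and kidney were compared within each series, in the untreated young mice and in the DMSO mice. The 2 comparisons share no libraries. In young mice 42 of 77 members were higher in liver, where 30.2% of all genes were higher and 35.1% lower. Only 1, Rpl3l, was lower, and it passed the count filter through kidney alone. The member median was 0.52 against -0.08 over all genes, and 76 members lay above 0 (47.1% of all genes). Liver lay fully above kidney in 17 members (27.3% of all genes). In DMSO mice 52 of 76 members were higher and 1 lower (33.2% and 38.7% of all genes). The member median was 0.35 against -0.07, 74 members lay above 0 (47.3%) and 54 fully above kidney (30.8%). With same-numbered libraries taken as blocks, 68 members were higher in young liver (4636 of all genes) and 47 in DMSO liver (4845). The sources do not say whether same-numbered samples share an animal.

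The direction of this difference turned with the scaling. TMM takes the bulk of genes as unchanged, while total count scaling takes all counts, the abundant liver transcripts included, as the base. With total count scaling the median of all genes moved to -1.16 in young and -1.05 in DMSO mice, and the members had medians of -0.58 and -0.65, with 1 higher and 57 lower in young (11.2% and 74.3% of all genes) and 0 higher and 72 lower in DMSO mice (11.4% and 76.1%). With the length and GC trend removed the medians were 0.29 in young mice (37 higher and 5 lower, against 34.5% and 38.1% of all genes) and 0.16 in DMSO mice (27 and 6, against 35.4% and 40.1%). As single libraries were left out the number higher in young liver ran from 25 (without young kidney 1 or 2) and 28 (without young liver 4) to 56 (without young kidney 4) and 57 (without young liver 2), and in DMSO liver from 42 to 61. Over all genes the number higher ran from 3825 (of 14166) to 4252 (of 14399) in young and from 4691 (of 15114) to 5238 (of 15244) in DMSO liver.

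**Figure D3:**
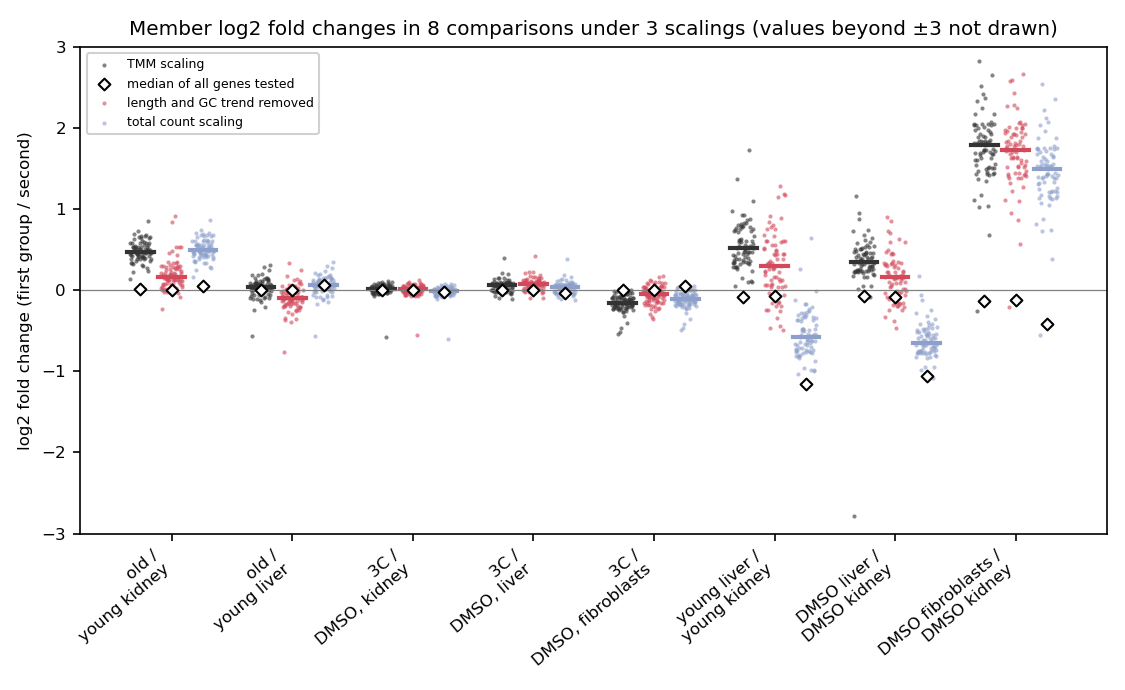
Log2 fold change (y axis) of each tested member in 8 comparisons (x axis) under TMM scaling, with the length and GC trend removed, and under total count scaling. Points are members, bars member medians and diamonds medians of all genes tested, and values beyond ±3 are not drawn. The medians for liver against kidney turn from 0.52 and 0.35 with TMM to -0.58 and -0.65 with total counts, and those for fibroblasts against kidney stay at 1.79 and 1.50.

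Rps27l, the p53-induced paralog of Rps27, was higher in liver in both series. It stood at 96.5, 88.3, 98.7 and 127 CPM in young kidney and at 230, 207, 207 and 419 CPM in young liver (log2 fold change 1.37, edgeR adjusted p = 0.000242). In DMSO mice it stood at 89.0, 91.7, 87.7 and 90.3 CPM in kidney and 231, 157, 218 and 200 CPM in liver (1.17, adjusted p = 2.43e-06). All liver libraries lay above all kidney libraries in both series. With total count scaling Rps27l stayed above 0 (0.27 and 0.18) and was no longer called.

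Rps18, a protein of the 40S head, stood at 217, 191, 249 and 303 CPM in young kidney and 444, 374, 497 and 741 CPM in young liver (1.10, edgeR adjusted p = 0.000858), and at 273, 300, 317 and 288 CPM and 538, 505, 607 and 513 CPM in DMSO kidney and liver (0.88, adjusted p = 1.12e-05). Rpsa was higher in liver by 0.93 (adjusted p = 0.00207) in young and by 0.68 in DMSO mice. For Rps18 the groups did not overlap in either series. With total count scaling, Rps18 was at -0.0052 and -0.12 and Rpsa at -0.16 and -0.32.

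Rps27a stood differently in the kidneys of the 2 series. In young mice it stood at 61.0, 53.1, 106 and 99.9 CPM in kidney and at 262, 181, 281 and 341 CPM in liver (1.73, edgeR adjusted p = 7.86e-05). In DMSO mice it stood at 203, 198, 213 and 201 CPM in kidney and at 252, 122, 304 and 284 CPM in liver (0.24, adjusted p = 0.341), where liver library 2 lay below every kidney library. Without it Rps27a was higher in DMSO liver (0.49, adjusted p = 0.00149). The series were not tested against each other. They differ in age (2.5 against 20 to 21 months), and their CPM come from separate fits. Rps27a also had the largest log2 fold change of the members in old against young kidney (0.85, not called). Reads with several alignments were tallied at 7.61 to 13.0% of all tallied reads in the untreated libraries and at 0 in the others. The part of age and of these reads in the Rps27a levels was not tested.

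Among other members with the smallest p, Rps26, which lies at the mRNA exit of the 40S subunit, stood at 152, 170, 193 and 240 CPM in young kidney and 311, 273, 371 and 439 CPM in young liver (0.88, edgeR adjusted p = 0.00126). In DMSO mice Rps2, a core 40S protein, stood at 553, 553, 551 and 566 CPM in kidney and 942, 1023, 1301 and 1022 CPM in liver (0.95, adjusted p = 2.77e-05). Rpl10, which joins the 60S subunit late, stood at 564, 526, 566 and 545 CPM and at 836, 823, 1093 and 887 CPM (0.73, adjusted p = 0.000196). Liver lay above kidney in every library for each of these, and with total count scaling Rps26 was at -0.21, Rps2 at -0.056 and Rpl10 at -0.28.

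Of the stalk proteins 1 was called in liver against kidney, and differences between them were not tested. Rplp1 was higher in liver by 0.87 (edgeR adjusted p = 0.00378) in young and 0.46 (0.00454) in DMSO mice. Rplp0 was at 0.29 (0.221) and 0.05, and Rplp2 at 0.06 (0.815) and 0.24 (0.0540), and none of these passed with all libraries and TMM factors alone. Rplp2 passed in DMSO mice without liver library 1, 2 or 4 (0.30, 0.31 and 0.31). Of the 5S partners, Rpl11 was higher in both series (0.76, adjusted p = 0.0140, and 0.54), and Rpl5 was at 0.39 (0.112) in young mice, not called, but higher without liver library 2 (0.54, 0.0235). With the length and GC trend removed Rpl11 was at 0.05 and 0.02 and not called, Rpl5 was lower in both series (-0.47, adjusted p = 0.0224, and -0.47, 0.00111), Rplp0 was at -0.25 (0.0928) in young and lower in DMSO mice (-0.38, 0.00217), and Rplp2 was higher in both (0.31, 0.0193, and 0.36, 0.000785). Under total count scaling all 5 were below 0 in both series: Rplp0 at -0.81 and -0.94, Rplp1 at -0.23 and -0.54, Rplp2 at -1.04 and -0.76, Rpl5 at -0.72 and -0.84, and Rpl11 at -0.35 and -0.46.

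The members were also scaled to their own sum, so that each was read against the family and the choice between TMM and total counts dropped out. Then 11 members were called in young (5 higher, 6 lower) and 12 in DMSO mice (6 and 6), and 7 were called in both in the same direction (63.6% of the first list and 58.3% of the second). Higher in liver in both were Rps27l (0.77 and 0.77), Rps18 (0.51 and 0.48), Rpl10 (0.41 and 0.32) and Rpsa (0.36 and 0.27). On this scale 14.2% of all genes were called higher and 45.6% lower in young and 19.5% and 51.5% in DMSO mice, since it takes the members and not the bulk of genes as the base. Lower in both were Rps19 (-0.44 and -0.49), Rps21 (-0.45 and -0.39) and Rpl3l. Rpl3l passed the count filter through kidney alone (85 counts in young kidney and 0 in young liver, 105 and 8 in DMSO mice). Its direction was fixed by that filter, so it does not add to the agreement between the series. Called in young mice alone were Rps27a (1.18), Rplp2 (-0.51), Rpl14 (-0.47) and Rps28 (-0.45), and in DMSO mice alone Rps2 (0.54), Rpl17 (0.25), Rps15a (-0.35), Rplp0 (-0.35) and Rpl5 (-0.24). The members called in a single series were not tested for a difference between the series. This scaling removes no length or GC trend. With TMM, Spearman's rho between GC content and log2 fold change within the members was -0.20 in young and -0.27 in DMSO mice (-0.08 and -0.07 in other genes). Rplp2, lower here in young mice, was called higher with TMM and the trend removed. The part of the trend in the calls on the family scale was not tested.

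**Figure D4:**
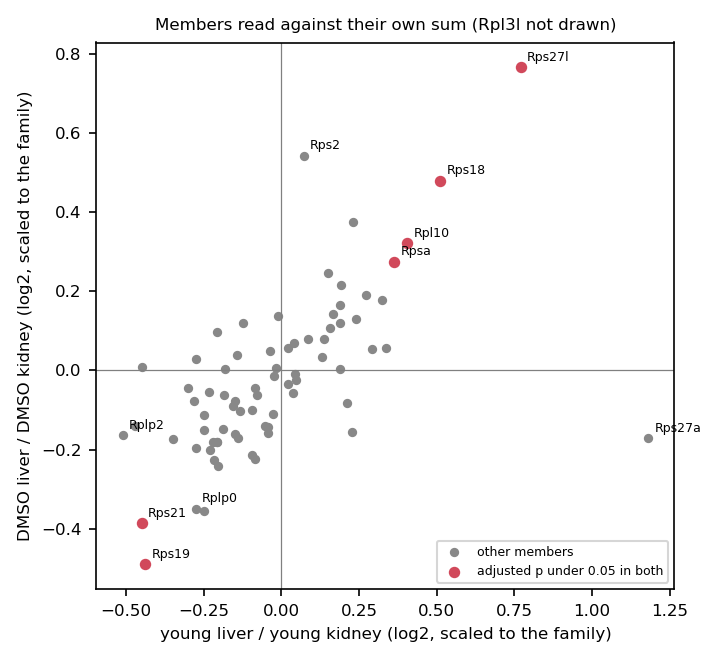
Log2 fold change of liver against kidney after scaling to the summed member counts, in untreated young mice (x axis) and in DMSO mice (y axis). Each point is a member, and red points have an adjusted p under 0.05 in both series. Rpl3l is not drawn. Rps27l lies at 0.77 on both axes, and Rps19 and Rps21 lie below 0 on both.

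Other genes of the translation machinery were counted on the same TMM scale, where 30.2% of all genes were called higher and 35.1% lower in young and 33.2% and 38.7% in DMSO mice. The 7 tested cytosolic ribosomal proteins outside the naming rule were all called higher in both series, as were 13 of 18 TOP translation factors in each, with 1 lower in young and 2 lower in DMSO mice. Of 40 ribosome biogenesis genes 21 were higher and 2 lower in young mice, and 18 were higher and 0 lower in DMSO mice. Of 78 mitochondrial ribosomal proteins 33 were higher and 8 lower in young mice, and 50 and 8 in DMSO mice. Of 14 RNA polymerase I genes 2 were higher and 2 lower in young mice (median 0.09), and 3 and 4 in DMSO mice (median -0.09). The counts under total count scaling, which turned the direction of the members, were not computed.

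DMSO fibroblasts against DMSO kidney gave the largest median of the 8 comparisons, and the kidney libraries are those of the DMSO liver comparison. Of 79 members 76 were higher and 1 lower (38.3% and 45% of all genes), with a median of 1.79 against -0.13 over all genes and 77 above 0 (46.7%), and in 76 the fibroblasts lay fully above the kidneys (37.9% of all genes). The number called and their direction held with total count scaling (median 1.50, all genes -0.42) and with the length and GC trend removed (median 1.73). Rps26 stood at 248, 246, 257 and 255 CPM in kidney and 1599, 1243 and 1207 CPM in fibroblasts (2.42, edgeR adjusted p = 8.53e-10). Rplp0 stood at 895, 855, 883 and 865 CPM in kidney and 4387, 3411 and 3997 CPM in fibroblasts (2.17), and Rplp2 at 278, 268, 286 and 278 CPM and 1298, 1010 and 1128 CPM (2.05). The fibroblasts lay several times above the kidneys in every library. Rpl5 differed less, with 379, 401, 425 and 416 CPM in kidney and 912, 818 and 750 CPM in fibroblasts (1.03). Of the 79 members, Rpl39l passed the count filter through the fibroblasts alone and Rpl3l through the kidneys alone, so their directions were fixed by that filter.

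Read against the family, 19 members were called higher and 23 lower in fibroblasts (8.81% and 83.2% of all genes on this scale). Among the higher were Rps4l (1.04), Rps28 (0.86), Rpl13a (0.73), Rps26 (0.63) and Rplp1 (0.58), and among the lower Rpl5 (-0.76), Rpl7a (-0.74), Rpl10 (-0.67), Rpl4 (-0.60), Rps4x (-0.37) and Rps27a (-0.36). Rpl7a had the most genomic copies of the family. On the TMM scale, where 38.3% of all genes were higher and 45% lower, 39 of 40 ribosome biogenesis genes were higher in fibroblasts (median 1.18), of the TOP translation factors 16 of 18, of the 7 other cytosolic ribosomal proteins 7, and of the mitochondrial ribosomal proteins 46 higher and 14 lower of 78 (median 0.35). All 5 markers of dividing cells were higher, and their part in the member values was not tested.

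Of the paralogs, Rpl39l was counted almost only in fibroblasts. It had 3145 counts in the 3 DMSO fibroblast libraries and 1901 in the 3 3C fibroblast libraries, and 0 or 1 count in each kidney and liver group. On the scale of all libraries of that series it stood at 52.2, 38.7 and 40.02 CPM with DMSO and 23.3, 28.0 and 40.4 CPM with 3C. In CPM it was at least 1128-fold higher in DMSO fibroblasts than in DMSO kidney and at least 1218-fold higher than in DMSO liver, taking 3 counts over the group as the floor. The 3C groups overlapped the DMSO groups (log2 fold change -0.51, adjusted p = 0.173). Its widely expressed partner Rpl39 stood at 608, 498 and 398 CPM in DMSO fibroblasts and at 96.2 to 118 CPM in DMSO kidney.

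Rpl3l was counted mainly in kidney, at a low level. It averaged 1.18 to 1.54 CPM in the kidney groups. In young mice kidney was at least 34.4-fold higher than liver, where no count was seen. In old mice the ratio was 66.9 (95% interval 18.2 to 557, which like the others covers counting error only), in DMSO mice 14.2 (6.94 to 33.7), and against DMSO fibroblasts 24.4 (9.25 to 91.2). Rpl3 itself stood at 270 CPM per kb in young kidney, 340 in young liver and 817 in DMSO fibroblasts, which were scaled apart from the young tissues. Rps4l, whose partner Rps4x stood at 322, 491 and 859 CPM per kb in the same groups, stood at 12.8, 21.8 and 100 CPM per kb. In fibroblasts against kidney Rps4l rose by 2.83 and Rps4x by 1.42. Rpl10l had 6 counts over all libraries, 5 of them in DMSO fibroblasts.

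**Figure D5:**
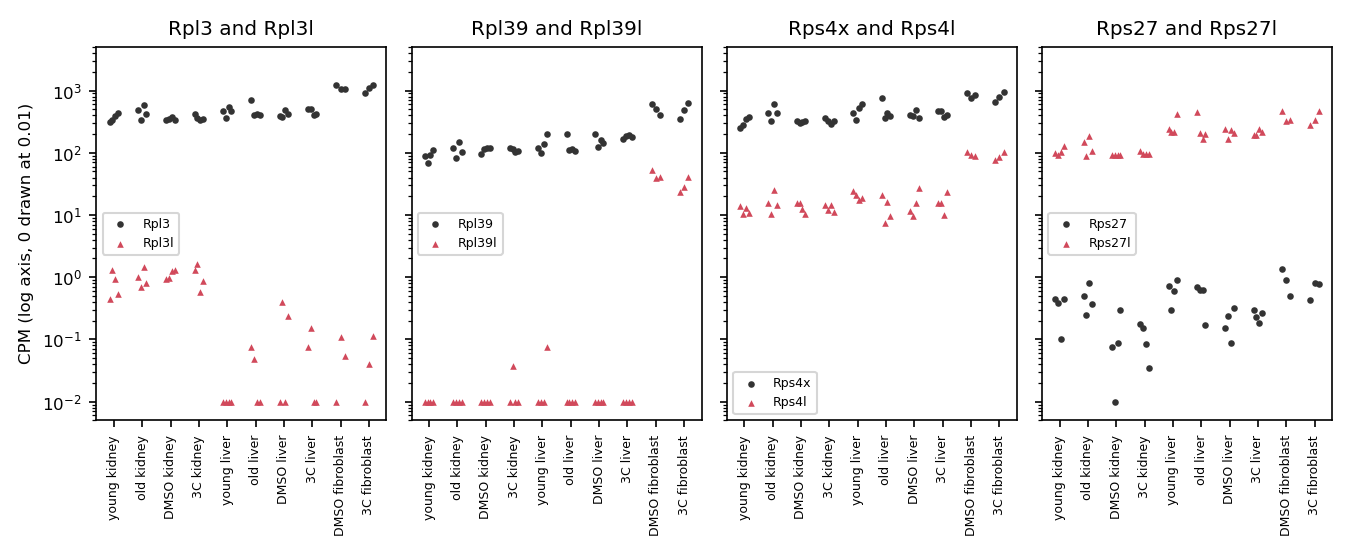
CPM (log y axis) of 4 ribosomal protein genes and their paralogs (Rpl3 and Rpl3l, Rpl39 and Rpl39l, Rps4x and Rps4l, Rps27 and Rps27l) in the libraries of the 10 RNA-seq groups (x axis). Values of 0 are drawn at 0.01. Rpl39l is seen in fibroblasts, from 23.3 to 52.2 CPM, and Rpl3l in kidney, at about 1 CPM. The values of Rps27 (0 to 35 counts) do not give its level.

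Nearly all members had a promoter peak in the deposited lists, in both tissues at both ages. An ATAC-seq peak within 1 kb of an annotated start was present for 78, 79 and 79 of 82 members in young kidney and 80, 79 and 79 in old kidney (95.1 to 97.6%, against 60.8 to 63.9% of all genes with a start site). In liver the numbers were 76, 76 and 75 in young and 77, 75 and 76 in old mice (91.5 to 93.9%, against 57.5 to 60.4%). A peak was present in all 6 libraries for 78 members in kidney and 70 in liver. Peaks were called in each library on its own, and the lists reached down to a −log10 q of 0.30 to 0.41. At a −log10 q of at least 5, 92.7 to 95.1% of members had a peak in kidney (52.6 to 57.3% of all genes). In liver 69.5 to 78.0% did in young and 72.0 to 89.0% in old mice (45.7 to 49.8% of all genes).

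Rpl10l and Rpl39l had no promoter peak in any library of either tissue, which were also tissues where their transcripts were at 0 or 1 count. Rpl3l had a peak in 1 kidney library and none in liver. Rpl18, Rps4l and Rpl32l had a peak in all 6 kidney libraries and in 3, 3 and 1 liver libraries. The fold enrichment of these peaks was near that of other genes in kidney. The member median lay above 46.96 to 56.2% of all genes with a promoter peak in the same kidney library, and above the gene median in 4 of 6 libraries (members 5.59 to 7.85, genes 5.81 to 7.35). In liver it lay above 37.6 to 52.96% of genes, and above the gene median in 1 of 6 libraries, old library 1 (5.47 against 5.29). No test between members and other genes was made.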

How the data were processed

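RNA-seq (38 libraries) and ATAC-seq (12 libraries) were analysed from the deposited tables. The authors used Trimmomatic 0.39 to trim the RNA-seq reads, HISAT2 2.2.1 to align them to the mm10 genome and HTSeq 0.12.4, ignoring strand, to obtain the deposited raw counts of each gene. These steps are described for the untreated tissues. The DMSO and 3C libraries are not described in the study's methods, and only the submitters' processing notes cover them. For ATAC-seq, the authors aligned with Bowtie2 2.3.5.1 and made 1 peak list a library with MACS2 (version not given in the sources used here). The deposited peak lists give a fold enrichment over local background, a −log10 p and a −log10 q for each peak.

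HTSeq tallies of reads outside genes were left out of totals. Reads outside any gene were 5.85 to 19.1% of those assigned to a gene, to several or to none. Counts were tested with edgeR 4.0.16 (R 4.3.3; TMM factors, filterByExpr with a minimum count of 10, quasi-likelihood test, two-sided) over all genes that passed the filter, and the Benjamini-Hochberg adjusted p had to be under 0.05 for a call. The untreated series and the DMSO and 3C series were fitted separately. The test was checked on simulated counts. Alternatives were DESeq2 1.42.0, RLE factors, factors from genes that are no members, no filter, a minimum mean of 1 CPM, a fold above 2 (or below 0.5), a replicate block, the removal of a smooth trend (splines with 4 degrees of freedom) over exon length and GC content in each library, and leaving out each library. Total count scaling and scaling to the family were added after seeing the data. The remaining steps used pandas 2.3.3, NumPy 2.4.6 and SciPy 1.17.1 in Python 3.11.15.

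Exon lengths, GC content and start sites came from the GRCm38 annotation and promoter sequences from RefSeq. A promoter peak overlapped the 1000 bp on either side of a start. Members named in each comparison were up to 4 higher and 4 lower called members of smallest p among those without overlap of the groups, and, throughout, the paralog pairs, the stalk proteins, Rps27a, Rpl5, Rpl11, Rpsa and Rps6. Up to 2 called genes were named per list. The members, lists and rule were chosen with earlier results of these data known. Replicates of a group differed beyond sampling noise in all 54 pairs. In no comparison was the correlation of the deviations of same-numbered samples over 0.1 in every pair, so numbers were not taken as pairs. In young liver against young kidney all these correlations were above 0 (0.08 to 0.37), and the labels do not say whether the samples share animals.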

Additional observations from a re-analysis of the deposited data

Results flagged for a closer look

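In 13 of 128 group tests of named members, each over 4 libraries, the highest or lowest library stood apart from the other 3 by Dixon's criterion at its 95% level. Chance alone gives about 1 in 20. CPM values here use TMM factors over all libraries of a series.

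Old liver 1 stood above the other old livers for Rpl3 (709 CPM, others 405 to 413), Rpl39 (201 CPM, others 105 to 116), Rps27l (460 CPM, others 169 to 207), Rplp1 (1320 CPM, others 485 to 541), Rpl5 (693 CPM, others 364 to 394), Rpl11 (862 CPM, others 354 to 372) and Rpsa (1417 CPM, others 608 to 690). The genes belong to both subunits, the stalk and the 5S particle. These values share 1 library and are not independent of each other.

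Rps27l was also high in young liver 4 (424 CPM, others 214 to 237) and in 3C kidney 1 (105 CPM, others 93.9 to 95.5). DMSO kidney 1 was low for Rpl39 (96.2 CPM, others 117 to 118) and Rpl11 (236 CPM, others 280 to 289). DMSO liver 3 was high for Rplp2 (318 CPM, others 244 to 255) and Rps6 (608 CPM, others 492 to 497). In kidney these gaps were small beside the levels.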

How the results depend on the processing

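Of the values of single named genes under the alternatives, 2590 kept their direction and their side of the threshold, 212 moved, 31 gained the threshold, 24 lost it and 50 turned sign while past the threshold in either fit. Total count scaling and scaling to the family move all genes nearly alike (all-gene median -1.16 and -0.63 in young liver against kidney, -0.078 with TMM), so a sign turned under them does not show a change of that gene against the rest. For old against young kidney the number of 78 members higher was 0 with a fold above 2 (823 of all 14495 genes), 10 with DESeq2 (1611), 6 with the length and GC trend removed (1522), 7 with total count scaling (1219), 0 scaled to the family (210, median -0.012) and 0 to 52 as single libraries were left out. For young liver against young kidney it was, of 77 members, 3 with a fold above 2 (2369 of all 14057 genes), 68 with the replicate block (4636), 1 with total count scaling (1580), 5 scaled to the family (2001) and 25 to 57 without single libraries. The number lower there was 0 at a minimum mean of 1 CPM, 5 with the trend removed (5357 of all genes), 57 with total counts (10443) and 6 scaled to the family (6417). Its median was -0.58 with total counts and -0.052 scaled to the family. For DMSO liver against DMSO kidney the number of 76 members higher was 1 with a fold above 2 (2348 of all 14981 genes), 27 with the trend removed (5299), 0 with total counts (1715) and 6 scaled to the family (2924), and the number lower was 0 at 1 CPM, 6 with the trend removed (6005), 72 with total counts (11402) and 6 scaled to the family (7715). Its median was 0.16 with the trend removed, -0.65 with total counts and -0.051 scaled to the family. For DMSO fibroblasts against kidney 19 of 79 were higher and 23 lower scaled to the family (1360 and 12845 of all 15437 genes, median 0.013), 0 lower at 1 CPM, and the median was 1.50 with total counts and 1.64 to 1.86 without single libraries. In 3C against DMSO fibroblasts 0 to 1 members were lower without single libraries. The median difference of the age effects was -0.0054 scaled to the family. Under the replicate block 1 member was higher in old kidney (844 of all genes), 47 in DMSO liver (4845) and 76 in DMSO fibroblasts (5599). Correlations of same-numbered libraries' deviations were 0.08 to 0.37 in young liver and kidney, where 3 of 4 matched best with their own number. The cause of the other changes was not tested.

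Values of named genes that passed the test in the reported fit or under the alternative turned sign in 3 comparisons. In young liver against young kidney, with total counts, these were Rps18 (-0.0052), Rps26 (-0.21), Rpl3 (-0.75), Rpl10 (-0.12), Rpl39 (-0.47), Rps4x (-0.49), Rps4l (-0.31), Rplp0 (-0.81), Rplp1 (-0.23), Rplp2 (-1.04), Rpl5 (-0.72), Rpl11 (-0.35), Rpsa (-0.16) and Rps6 (-0.54); with the trend removed Rps4x (-0.083), Rpl5 (-0.47) and Rps6 (-0.34), and scaled to the family Rplp2 (-0.51) and Rps6 (-0.011). In DMSO liver against DMSO kidney, with total counts, these were Rps18 (-0.12), Rps2 (-0.056), Rpl10 (-0.28), Rpl3 (-0.78), Rpl39 (-0.52), Rps4x (-0.65), Rps4l (-0.75), Rplp0 (-0.94), Rplp1 (-0.54), Rplp2 (-0.76), Rps27a (-0.76), Rpl5 (-0.84), Rpl11 (-0.46), Rpsa (-0.32) and Rps6 (-0.46). With the trend removed they were Rpl3 (-0.25), Rpl39 (-0.0031), Rps4x (-0.19), Rplp0 (-0.38), Rpl5 (-0.47) and Rps6 (-0.14), and scaled to the family Rps4x (-0.056), Rplp0 (-0.35) and Rpl5 (-0.24). In DMSO fibroblasts against kidney, scaled to the family, they were Rpl3 (-0.11), Rpl10 (-0.67), Rps4x (-0.37), Rps27a (-0.36), Rpl5 (-0.76), Rpl11 (-0.29) and Rps6 (-0.27).

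The summed member CPM without TMM factors was 25336 in young kidney, 35983 in old kidney, 17615 in young liver, 77378 in DMSO fibroblasts, 27428 in DMSO kidney (21520 with TMM and the trend removed), 27270 in 3C kidney, 18135 in DMSO liver and 18562 in 3C liver, where TMM gave 17999, 24355, 26724, 68737, 20083, 20433, 27115 and 27871. With peaks of −log10 q of at least 5, a mean of 76.7 members had a promoter peak in young kidney, 77.3 in old kidney, 60.7 in young liver and 65.3 in old liver, and a mean of 75 did in young liver when each liver library gave equally many top peaks.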
